A study of Mus musculus with 4 samples.

Results

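Among the products that mark absorptive cells of the small intestine, 10 mouse genes were followed in colon RNA: the brush-border enzymes Sis, Lct and Alpi, the lipoprotein genes Apoa1, Apoa4, Apob and Mttp, and the small carriers Fabp2, Fabp6 and Rbp2. They were chosen by name, with earlier results of these data known, and every non-control spot carrying one of these names was taken. The 10 genes had 13 of the array's 56605 probes, and 7 of the 10 had a probe bright enough to enter the test, out of 19326 genes tested in all. The arrays were Agilent one-colour arrays hybridised with Cy3-labelled colon RNA.

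All 4 arrays came from whole colon of C57BL/6 mice on day 5 of dextran sulfate sodium (DSS) in the drinking water, which injures the colon lining and causes colitis. The 2 control arrays came from Junb fl/fl mice, whose floxed Junb alleles remain intact, and the 2 mutant arrays from Junb fl/fl Cd4-Cre mice. Both genotypes carried the floxed alleles, and the label of the controls names no Cre. Cd4-Cre recombines in developing T cells. The design thus removes Junb, a subunit of the transcription factor AP-1, from that lineage and not from the epithelium making the enterocyte products. The study asked how gene expression in the colon differs between the genotypes under DSS. No colon without DSS was analysed here. The labels do not say whether an array is 1 mouse or a pool, and they give no age or sex, so p-values measure the spread between these arrays only.

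Enterocytes of the small intestine break down sugars and peptides at their brush border, take up fat, vitamin A and, in the ileum, bile acids, and export fat as chylomicrons built on apolipoprotein B. The colon lining is also absorptive, but it takes up mainly water, salt and short-chain fatty acids, and it makes most of these enterocyte products at low levels or not at all. The transcription factors HNF4, CDX, GATA and HNF1 are known to drive many of these genes. In bulk tissue, fewer cells of a type and less RNA per cell cannot be told apart.

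The probes show what was measured, since a value here is the brightness of 1 stretch of 60 bases. Both Apob probes, each well above background on 4 of 4 arrays, are printed. Probes are also printed for Fabp6, whose level differed most among the arrays, and for Apoa1 and Apoa4, which were dim everywhere. They read 5′ to 3′ in lower case, as the array design gives them.
Fabp6: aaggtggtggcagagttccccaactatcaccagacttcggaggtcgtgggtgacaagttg
Apob, first probe: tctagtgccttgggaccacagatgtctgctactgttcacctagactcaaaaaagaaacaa
Apob, second probe: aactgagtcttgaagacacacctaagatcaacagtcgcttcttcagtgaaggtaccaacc
Apoa1: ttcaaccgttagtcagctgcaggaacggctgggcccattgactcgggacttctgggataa
Apoa4: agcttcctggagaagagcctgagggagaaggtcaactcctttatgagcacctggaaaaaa

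In the array annotation, which uses genome build mm9, the Fabp6 probe lies at chromosome 11, 43410973 to 43411032, on the minus strand. The first Apob probe lies at chromosome 12, 8012697 to 8012756. The second runs from 7992933 to 7994547 on that chromosome, further than its 60 bases reach, so it crosses an intron. The Apoa1 probe lies at chromosome 9, 46037921 to 46037980, and the Apoa4 probe at 46051206 to 46051266 of the same chromosome.

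The arrays were alike in quality. Between 27940 and 29091 probes were well above background on each array, no spot was saturated, and Pearson's correlations between arrays ran from 0.976 to 0.984. The targeted gene, Junb, differed by 0.15 ± 0.11 (log2, mutant minus control, ± SE; adjusted p = 0.691 by limma). Whole colon holds many cell types beside T cells, and loss of Junb from T cells was not tested here. The defining colon markers Car1, Slc26a3 and Cdx2 were well above background on 4 of 4 arrays, and Hnf4a was too. Xist, made from the silenced X, and Eif2s3y, which lies on the Y chromosome, split the arrays by sex: the 2 arrays with replicate number 1 were female and the 2 with number 2 were male, 1 of each in each genotype. The sex is read from the data, since the labels do not give it.

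Levels are given below as log2 of the processed signal minus the array's 75th percentile, so that 0 is that percentile of the probes. Probes bind with different strength, so levels of different genes are not compared as amounts. For some lists the levels are summed per array, and such sums are weighted toward the brightest probes.

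**Figure D1:**
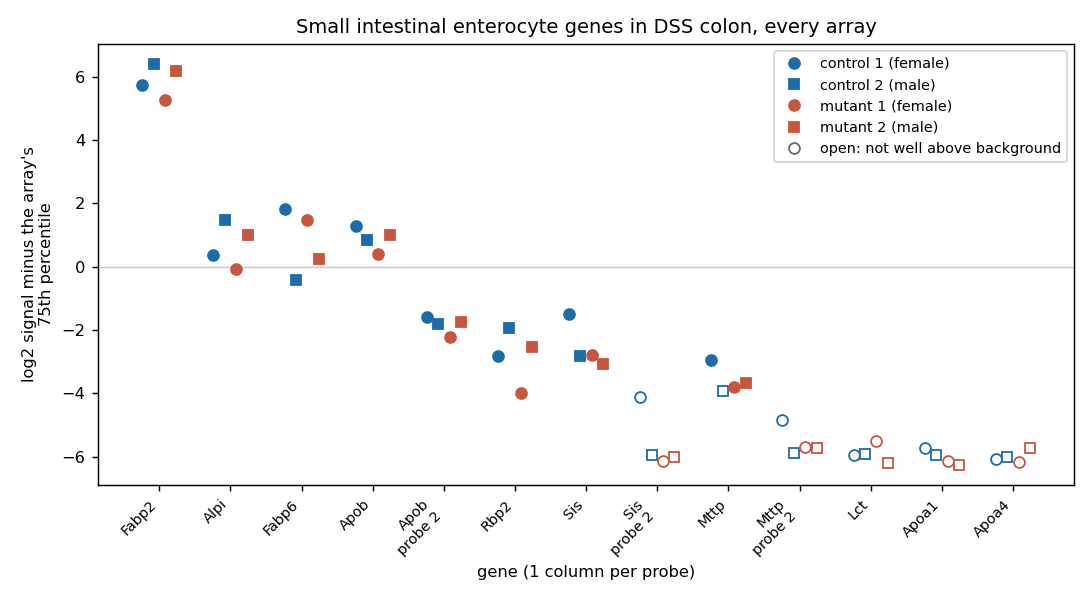
Log2 level (processed signal minus the array's 75th percentile) of every probe of the 10 genes, 1 column per probe and 1 point per array. Filled points are well above background and open points are not. Lct, Apoa1 and Apoa4 have open points on all 4 arrays. Fabp6 separates the arrays by replicate number, with 1.82 and 1.48 on the female arrays and -0.43 and 0.23 on the male arrays.

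Among the brush-border enzymes, Alpi was well above background on 4 of 4 arrays, Sis on 4 of 4 with 1 of its probes, and Lct on none. Alpi, the intestinal alkaline phosphatase that removes phosphate from bacterial lipopolysaccharide, had levels of 0.38 and 1.49 in the controls, against -0.09 and 1.01 in the mutants. Its processed signals were 428 and 921 in the controls, against 293 and 541 in the mutants. The groups overlapped, and within each genotype the male array was the higher one.

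Sis, the sucrase-isomaltase that splits sucrose and starch fragments, had levels of -1.497 and -2.82 in the controls, against -2.80 and -3.07 in the mutants. One array, the female control with a signal of 117, stood above the other 3, whose signals were 46.5, 44.7 and 32.0. A second Sis probe, designed on another transcript model, was well above background on none of the arrays. Lct, the lactase of suckling mice, had processed signals between 3.66 and 6.92 and was not tested.

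Among the lipoprotein genes, Apob was well above background on 4 of 4 arrays. Apob encodes the structural protein of chylomicrons. Its first probe had levels of 1.30 and 0.84 in the controls, against 0.41 and 0.99 in the mutants. Its second probe, far from the first along the transcript, read -1.58 and -1.81 in the controls, against -2.22 and -1.74 in the mutants. Both probes placed the female mutant lowest and the female control highest, and with both the groups overlapped.

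Mttp, the transfer protein that loads fat onto apolipoprotein B, was close to background. Its levels were -2.94 and -3.93 in the controls, against -3.80 and -3.69 in the mutants, and the male control was not well above background. A second Mttp probe, of which 37 bases lie upstream of the RefSeq transcript start and 23 downstream, was well above background on none of the arrays. Apoa1 and Apoa4, neighbouring genes for exchangeable apolipoproteins of chylomicrons and high-density lipoprotein, were well above background on none of the arrays. Their processed signals ran from 3.54 to 6.23 for Apoa1 and from 4.30 to 5.09 for Apoa4.

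Among the carriers, Fabp2, the intestinal fatty acid-binding protein, was bright on all 4 arrays. Its probe, at chromosome 3, 122602276 to 122602335 (mm9), gave processed signals of 17557 and 27644 in the controls, against 11876 and 19193 in the mutants. The corresponding levels were 5.73 and 6.39 in the controls, against 5.26 and 6.16 in the mutants. The groups overlapped, and the male array was again the higher one within each genotype.

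Rbp2, the carrier that holds retinol inside enterocytes, was dim but well above background on 4 of 4 arrays. Its levels were -2.83 and -1.95 in the controls, against -3.98 and -2.54 in the mutants. The female mutant, with a signal of 19.7, was lowest, and the male control, with 85.1, was highest.

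Fabp6, the bile acid-binding protein of ileal enterocytes, had levels of 1.82 and -0.43 in the controls, against 1.48 and 0.23 in the mutants. The processed signals were 1168 and 868 on the female arrays against 244 and 315 on the male arrays. Fabp6 therefore ran opposite to Fabp2, Alpi and Rbp2 across the female and male arrays.

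The comparison of the genotypes found no enterocyte gene past the threshold. With limma on all 19326 genes, 0 of the 7 tested genes reached an adjusted p of 0.05, and 0 reached an unadjusted p of 0.05. Over all genes tested, 0% passed the adjusted threshold and 9.29% the unadjusted one. With 2 arrays against 2, an exact permutation test of a single gene cannot give a two-sided p below 0.333. Of the 7 genes, 6 had a lower mean in the mutants and Fabp6 a higher one. Over all genes, 46.7% had a lower mean in the mutants. The median difference of the 7 was -0.37, and that of all genes tested was 0.02. In none of the 7 did both mutants lie below both controls, which held for 17.6% of all genes.

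**Figure D2:**
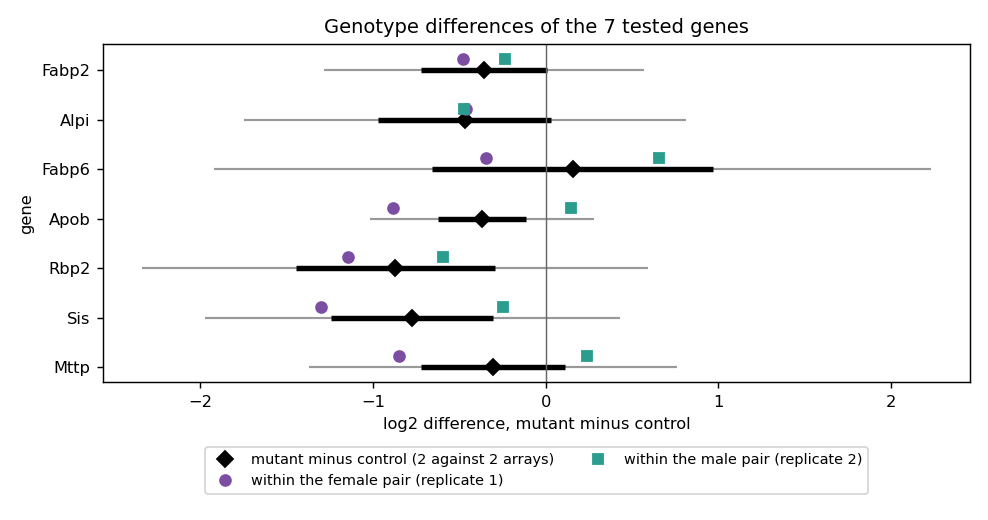
Log2 difference, mutant minus control, for the 7 tested genes. Black diamonds are the differences of the group means over 2 against 2 arrays with their 95% intervals, circles the difference within the female pair and squares that within the male pair. All 7 intervals include 0. Sis, Fabp2, Alpi and Rbp2 lie below 0 in both pairs, and Apob, Fabp6 and Mttp lie on opposite sides of 0.

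Rbp2 differed by -0.87 ± 0.57 (log2, mutant minus control, ± SE), a mean 1.83-fold lower in the mutants. Its 95% interval ran from -2.33 to 0.60 (adjusted p = 0.663). Sis differed by -0.77 ± 0.47, with an interval from -1.97 to 0.43 (adjusted p = 0.644). With normexp background correction in place of the scanner's, the values were -0.26 for Rbp2 and -0.33 for Sis, both dim probes. These intervals reach past a 4-fold lower level for Rbp2 and close to one for Sis, and at their other end past no difference. Alpi differed by -0.47 ± 0.50 (adjusted p = 0.789), Apob by -0.37 ± 0.25 (adjusted p = 0.672) and Fabp2 by -0.36 ± 0.36 (adjusted p = 0.778). Mttp differed by -0.30 ± 0.42 (adjusted p = 0.838) and Fabp6 by 0.16 ± 0.81 (adjusted p = 0.961). Each of these 5 differences was smaller than 1.5 times its standard error. The second Apob probe differed by -0.28 ± 0.23 in the fit over 28898 probes, in which 8.22% of probes had an unadjusted p under 0.05, and its own unadjusted p was 0.275.

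Each genotype held 1 female and 1 male array, so the difference can be read within sex. The mutant lay below the control within both pairs for 4 of the 7 genes, against 29.1% of all genes tested. Rbp2 differed by -1.15 in the female pair and by -0.59 in the male pair. Sis differed by -1.30 and -0.24, Fabp2 by -0.48 and -0.23, and Alpi by -0.46 and -0.48. Apob, Mttp and Fabp6 were lower in the mutant of the female pair and higher in that of the male pair. Each pair is 1 array against 1, so these values have no replicate check. With sex, which is also the replicate number, as a term in the model, 3 of the 7 had an unadjusted p under 0.05 (Alpi, Fabp2 and Rbp2), against 17.5% of all genes, and 0 passed the adjusted threshold, against 0.238% of all genes.

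Single arrays set some of these values. Without the male control, Sis differed by -1.44 (unadjusted p = 0.00574). Without the male mutant, Rbp2 differed by -1.59 (unadjusted p = 0.0262) and Fabp2 by -0.81 (unadjusted p = 0.0482). Without the female mutant Rbp2 differed by -0.15, and without the female control Sis differed by -0.11. For Alpi, Fabp2, Mttp and Fabp6 the direction turned in at least 1 omission.

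With sex and genotype both in the model, more of these genes passed a threshold between male and female arrays than between the genotypes. The numbers were 5 of the 7 against 3 at the unadjusted threshold and 2 against 0 at the adjusted one. Over all genes the unadjusted shares were 15.8% between the sexes and 17.5% between the genotypes. In a limma fit of male against female arrays with genotype in the model, added after the data were seen, Alpi and Fabp2 passed the adjusted threshold. They were 2 of the 7 tested, and 0.766% of all genes passed. With quantile normalization, without the intensity trend or without the genotype term, 0 of the 7 passed. At an unadjusted p of 0.05, 5 of the 7 passed, against 15.8% of all genes. In 5 of the 7 genes both arrays of one sex lay above both of the other, which held for 39.1% of all genes. Each sex was represented by 2 arrays, 1 per genotype, that also share a replicate number.

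Alpi was 2.15-fold higher on the male arrays, a log2 difference of 1.104 ± 0.109 (SE; adjusted p = 0.0346). Fabp2 was 1.72-fold higher on the male arrays, at 0.78 ± 0.09 (adjusted p = 0.0481). Rbp2 had a mean 2.24-fold higher on the male arrays, at 1.16 ± 0.25 (unadjusted p = 0.00581, adjusted p = 0.153). In the other direction, Fabp6 had a mean 3.37-fold higher on the female arrays, a male minus female difference of -1.75 ± 0.25 (unadjusted p = 0.000806, adjusted p = 0.0680). Sis was at -0.80 ± 0.31 (unadjusted p = 0.0499, adjusted p = 0.317), and that value rests on the female control alone, since the other female array, at -2.80, was level with the male control, at -2.82. Apob differed by 0.06 ± 0.25 and Mttp by -0.44 ± 0.38, both with unadjusted p above the threshold (0.827 and 0.2995).

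**Figure D3:**
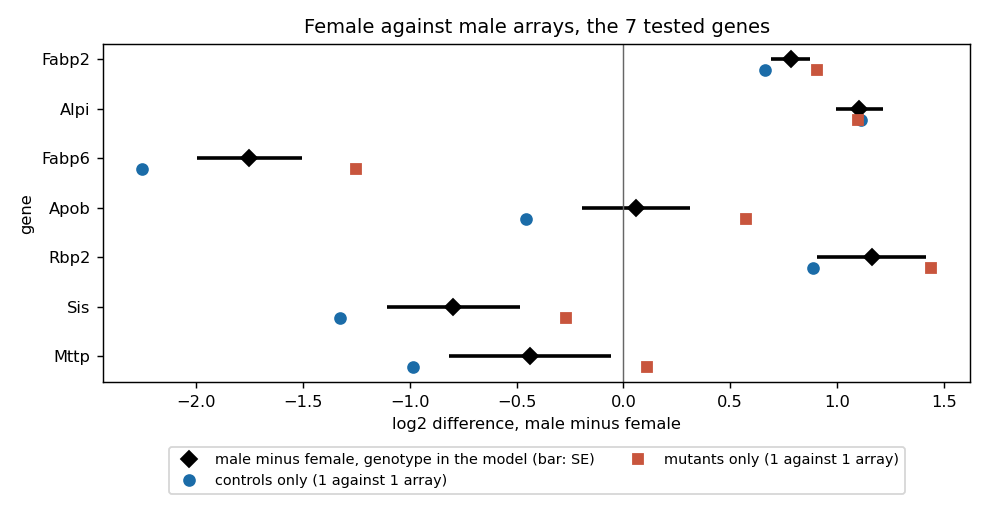
Log2 difference, male minus female, for the 7 tested genes. Black diamonds are the fitted differences with genotype in the model and bars their SE, circles the male control minus the female control, and squares the male mutant minus the female mutant. Alpi, Fabp2 and Rbp2 lie above 0 in both genotypes, and Fabp6 and Sis below 0.

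Other genes also differed between the female and the male arrays. Hoxb13, a gene of the hindmost body axis that is most active in the distal colon, had levels of 4.82 and 4.43 on the female arrays and 3.52 and 1.56 on the male arrays. Hoxd13 and Hoxa13 were also lower on the male array of each genotype, with Hoxd13 at 0.25 and 0.15 against -0.54 and -2.50, and Hoxa13 at -0.05 and -0.28 against -0.98 and -1.26. The neutrophil genes S100a8 and S100a9 had higher means on the male arrays, by 1.74 (adjusted p = 0.0276) and 1.97 (adjusted p = 0.0102). Their arrays did not separate by sex, since the female mutant lay above the male control. S100a8 read -0.89 and 1.12 on the female arrays, against 0.62 and 3.10 on the male arrays. S100a9 read 0.42 and 2.72, against 2.45 and 4.63. The part of position along the colon, of inflammation or of sex itself in the Alpi, Fabp2 and Fabp6 values was not tested.

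Among the list genes, those past the adjusted threshold between male and female arrays, and Slc15a1 and Slc51a, were named after their values were seen. How many genes passed that threshold depended on the setting. Of 19326 genes, 148 passed in this fit, 1033 with normexp, 238 with the median as scale and 79 with quantile normalization. Only 4 passed without the intensity trend and 3 without the genotype term. The list genes were not followed one by one across these settings. Creb3l3, a liver and intestinal transcription factor known to activate apolipoprotein genes, was higher on the male arrays by 1.97 (adjusted p = 0.0156). Its levels were 0.21 and -0.11 on the female arrays and 2.27 and 1.76 on the male arrays. The lipase genes Pnliprp2, by 2.09 (adjusted p = 0.0167), and Clps, the colipase, by 1.03 (adjusted p = 0.0346), were higher on the male arrays too. So were Itln1, an intestinal lectin of goblet and Paneth cells, by 1.57 (adjusted p = 0.0167), and Ang4, an antimicrobial ribonuclease of the same cells, by 1.05 (adjusted p = 0.0276). Uptake genes had an unadjusted p under 0.05 in both directions, where 15.8% of all genes did in either direction. Of 23 tested fat uptake genes, male arrays were higher for 7, Clps and Pnliprp2 among them, and female arrays for 1. The same counts were 4 and 2 of 16 brush-border genes and 2 and 3 of 13 carriers. They were 2 and 0 of 5 vitamin A genes, and 1 and 1 of 7 ileal genes. Fabp1, the liver-type fatty acid-binding protein that is also abundant in proximal enterocytes, had a difference of 1.005 (unadjusted p = 0.00232, adjusted p = 0.105). Slc15a1, the small-peptide carrier, was at -1.42 (adjusted p = 0.0579). Of the ileal genes, Slc10a2, the bile acid importer, was at -0.83 (unadjusted p = 0.00831, adjusted p = 0.178), and Slc51a, a subunit of the bile acid exporter, at 0.36 (unadjusted p = 0.0129, adjusted p = 0.207).

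Alpi, Rbp2 and Fabp6 are shown by their promoters because each held the same HNF4 heptamer, while their levels on female and male arrays ran in opposite directions. The stretches are the 150 bases before the transcript start in RefSeq (GRCm38.p6), read 5′ to 3′ along the gene, with the match to CAAAGTC or its reverse complement GACTTTG in capitals.
Alpi, chr1:87101607-87101756, minus strand: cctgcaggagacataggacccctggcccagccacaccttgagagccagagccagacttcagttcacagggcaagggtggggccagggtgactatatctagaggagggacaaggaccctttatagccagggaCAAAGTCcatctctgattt
Rbp2, chr9:98490387-98490536, plus strand: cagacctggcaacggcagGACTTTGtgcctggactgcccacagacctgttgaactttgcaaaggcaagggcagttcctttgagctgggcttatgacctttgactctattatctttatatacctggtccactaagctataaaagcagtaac
Fabp6, chr11:43601563-43601712, minus strand: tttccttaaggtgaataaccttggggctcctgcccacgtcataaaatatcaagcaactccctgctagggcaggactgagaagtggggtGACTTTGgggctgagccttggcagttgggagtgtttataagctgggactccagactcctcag

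All 10 genes matched the promoter table by symbol. The heptamer began 19 bases before the start in Alpi, 132 in Rbp2 and 62 in Fabp6. Within the 250 bases before the start, on either strand, it was present in 3 of the 10 promoters and in 3.84% of all 32851 promoters in the table. The GATA hexamer AGATAA was present in 2 of the 10, Lct and Rbp2, and in 9.99% of all promoters. The HNF1 hexamer GTTAAT was present in 1, Sis, and in 6.43% of all, and the CDX heptamer TTTATGG in 0 of the 10 and in 2.43% of all. No 2 of these matches overlapped. A match is a run of letters and not a shown binding site.

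No gene of 14 lists around the enterocyte genes passed the adjusted threshold between the genotypes. These lists hold uptake genes, intestinal transcription factors and markers of colon and other cells, and 135 of their 168 genes were tested. Of the 135, 79 had a lower and 56 a higher mean in the mutants, and the median difference was -0.08. The lists were chosen with earlier results of these data known, so their counts are not independent of the data. An unadjusted p under 0.05 was found for 26 of the 135, of which 7 were smooth muscle markers, against 9.29% of all genes. With sex as a term in the model it was found for 50 of the 135, against 17.5% of all genes, and 4 passed the adjusted threshold: Clps (0.0474), S100a8 (0.0408), S100a9 (0.0236) and Reg3g (0.0236). Each count below is of genes past that unadjusted threshold, against 3.98% of all genes lower and 5.31% higher, and the adjusted p of each gene named was between 0.418 and 0.557 unless given. Among the uptake, transcription factor and colon genes named here with p under that threshold, Cubn and Cyp2c55 stayed below it whichever array was left out, and the others rose above it in at least 1 omission.

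Of 23 tested genes of dietary fat uptake and chylomicron assembly, 2 were lower and none higher, and the list median was 0.04. Apobec1, the enzyme that edits Apob mRNA to its short intestinal form, had levels of 3.59 and 3.40 in the controls, against 3.004 and 3.06 in the mutants, a difference of -0.46 ± 0.12 (unadjusted p = 0.0103). Mogat2, which rebuilds triglyceride in enterocytes, differed by -0.34 ± 0.13 (unadjusted p = 0.0496). Clps differed by -1.12 ± 0.47 (unadjusted p = 0.0611; adjusted p = 0.0474 with sex in the model) and Fabp1 by -0.83 ± 0.48 (unadjusted p = 0.141, adjusted p = 0.630). The chylomicron apolipoprotein genes Apoc3 and Apoa5, neighbours of Apoa1 and Apoa4, were well above background on none of the arrays.

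Of 16 tested brush-border hydrolases and peptidases, 2 were lower and none higher, with a median of -0.11. These were Anpep, aminopeptidase N, at -0.44 ± 0.14 (unadjusted p = 0.0226), and Mep1b, a subunit of the protease meprin, at -0.39 ± 0.14 (unadjusted p = 0.0382). Mgam, the maltase-glucoamylase related to Sis, was well above background on 4 of 4 arrays and differed by 0.24 ± 0.20 (unadjusted p = 0.296, adjusted p = 0.731). Trehalase (Treh), Akp3, a second intestinal alkaline phosphatase, and enteropeptidase (Tmprss15) were well above background on none of the arrays.

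Of 13 tested carriers of sugars, peptides, amino acids and iron, 1 was lower. This was Cybrd1, a brush-border ferric reductase, at -0.73 ± 0.23 (unadjusted p = 0.0225). The glucose carrier Slc2a2, the amino acid carrier Slc6a19 and the phosphate carrier Slc34a2 were well above background on none of the arrays. Of 5 tested vitamin A genes, 1 was lower, and the list median was -0.20. This was the retinol carrier Rbp4, at -0.40 ± 0.12 (unadjusted p = 0.0232). Cyp26b1, which degrades retinoic acid, differed by -1.48 ± 0.75 (unadjusted p = 0.103, adjusted p = 0.598). Bco1, which splits beta-carotene, was well above background on none of the arrays.

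Of 7 tested genes in the ileal list, which holds the hormone gene Guca2b beside uptake genes, 2 were higher and 1 was lower. Slc51b, a subunit of the basolateral bile acid exporter, was higher by 0.44 ± 0.12 (unadjusted p = 0.0122), and Guca2b, the hormone uroguanylin, by 0.31 ± 0.12 (unadjusted p = 0.0470). Cubn, the receptor that takes up cobalamin bound to intrinsic factor, differed by -1.43 ± 0.37 (unadjusted p = 0.0113), with levels of -0.36 and -1.41 in the controls, against -2.23 and -2.40 in the mutants. Slc10a2 differed by -0.45 ± 0.42 (unadjusted p = 0.327, adjusted p = 0.751). Fgf15, the ileal hormone that signals to the liver, was well above background on none of the arrays.

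Of 15 tested transcription factors of intestinal identity, Cdx2 was higher, at 0.43 ± 0.13 (unadjusted p = 0.0181), and none was lower. Hnf4a differed by 0.08 ± 0.11 (unadjusted p = 0.471, adjusted p = 0.829). Gata4, which marks the proximal small intestine, was well above background on none of the arrays.

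**Figure D4:**
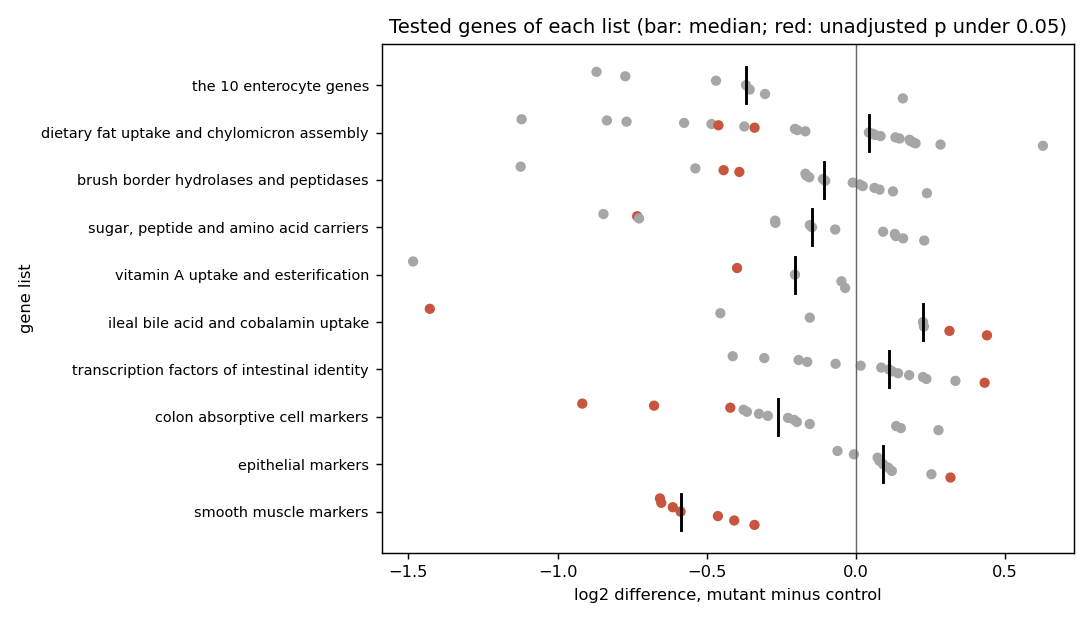
Log2 difference, mutant minus control, of every tested gene in each list. Points are genes, red points have an unadjusted p under 0.05, and bars are list medians. The 10 enterocyte genes, with 7 tested, have a median of -0.37 and no red point. All 7 smooth muscle markers are red and below 0.

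Markers of other cells differed between the genotypes at the unadjusted threshold. Of 14 tested markers of colon absorptive cells, 3 had p under 0.05, all lower: Cyp2c55 at -0.92 ± 0.24 (unadjusted p = 0.0113), Car2, a carbonic anhydrase, at -0.42 ± 0.11 (unadjusted p = 0.0135) and the water channel Aqp8 at -0.68 ± 0.26 (unadjusted p = 0.0485). The list median was -0.26. All 7 smooth muscle markers were lower with p under 0.05, with a median of -0.59, and their summed level, in units of each array's 75th percentile, was 390 and 426 in the controls, against 301 and 291 in the mutants. The general epithelial markers had a median of 0.09 and summed levels of 814 and 810 in the controls, against 855 and 886 in the mutants. Of 8 leukocyte and neutrophil markers, 2 had p under 0.05, both higher, and the list median was -0.04. They were the neutrophil genes S100a8, at 2.24 ± 0.78 (unadjusted p = 0.0344, adjusted p = 0.506), and S100a9, at 2.24 ± 0.88 (unadjusted p = 0.0498, adjusted p = 0.537). S100a8 had levels of -0.89 and 0.62 in the controls, against 1.12 and 3.10 in the mutants. Neither kept p under 0.05 without the female control (1.49 for S100a8 and 1.22 for S100a9) or without the male mutant (1.25 and 1.29). The summed level of the leukocyte list was 64.5 and 85.2 in the controls, against 69.7 and 108.7 in the mutants. Of its 8 markers, 5 had a lower mean in the mutants and 3 a higher one. Lyz2 was the largest term of the sum on every array and differed by -0.08 ± 0.21. The part of these other cells in the enterocyte values was not tested.

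Tissue carried over from neighbouring organs was looked for by defining markers. The liver genes Alb, Ahsg, Fgb and Fgg and the pancreatic genes Pnlip, Cpa1, Cpb1, Cela3b and Prss2 were well above background on none of the arrays. Other genes of those lists were detected. Of the liver list, Serpina1a, Ttr, Cyp2e1 and Tat were well above background on 4 of 4 arrays and Apoh on 2. Of the pancreatic list, Cela1 was on 4, Cela2a and Ctrb1 on 3 and Cel on 1. Clps, the colipase, and Pnliprp2, pancreatic lipase-related protein 2, were placed in the fat uptake list and were well above background on 4 of 4. The Paneth cell genes Lyz1 and Defa24, which mark small intestine, were both well above background on 4 of 4 arrays. Of the small intestinal genes, Slc10a2 was too, while Fgf15, Slc2a2, Slc6a19 and Gata4 were on none of the arrays. Carry-over of small intestine was not tested. Lyz1 differed by -0.05 ± 0.18 (unadjusted p = 0.791, adjusted p = 0.945) and Defa24 by 1.13 ± 0.50 (unadjusted p = 0.0742, adjusted p = 0.572), with Defa24 at -2.94 and -3.26 in the controls, against -1.26 and -2.69 in the mutants. The other Paneth cell markers tested went both ways, with Ang4 at -0.66 ± 0.48, Itln1 at -0.73 ± 0.70 and Mmp7 at 0.70 ± 0.36 (adjusted p of 0.682, 0.761 and 0.5996), and Defa21 was detected on 0 arrays. The summed level of the 5 tested was 61.3 and 135.9 in the controls, against 44.5 and 83.5 in the mutants, and Ang4 was its largest term on every array.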

How the data were processed

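Per the file headers, the 4 one-colour arrays were deposited as spot intensities written by version 11.5.1.1 of Agilent Feature Extraction. The processed signal is an intensity from which, per the file headers, background had been subtracted. Flags for outlier spots and for signals well above background came from the same deposited files as yes-or-no scores. From these, control spots were dropped, outlier-flagged spots left out, and spots of a probe averaged. The log2 of the deposited intensity minus the array's 75th percentile was used. A probe entered the test if it was well above background on 2 or more arrays, and each gene was represented by its brightest such probe. Genes were compared with limma 3.58.1 in R 4.3.3 (lmFit, eBayes with trend, two-sided, Benjamini-Hochberg adjustment over all 19326 genes; probes over 28898). The scripts were tested on simulated data. The enterocyte genes and lists were chosen with earlier results of these data known. The genes named are the enterocyte genes, up to 3 per list with the smallest p, up to 2 with small differences, set markers, and genes not above background. Others are said to have been named after their values were seen. The number of arrays limits precision. Genes keep the names used in the array design. Male and female arrays were compared in a fit with genotype as a term. Other settings are covered in the closing section. Protein sequences were not used here. One listed gene is not reported here.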

Additional observations from a re-analysis of the deposited data

Results flagged for a closer look

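For 3 of the enterocyte genes the mutant lay on opposite sides of the control in the female and the male pair, 1 array against 1 in each, and the difference between the pairs was not tested. Apob, the chylomicron protein, differed by -0.88 (log2, mutant minus control) in the female pair and by 0.15 in the male pair. Mttp, which loads it with fat, differed by -0.85 and 0.24, with the male control not well above background. Fabp6, the ileal bile acid carrier, differed by -0.34 and 0.66. The second Apob probe gave -0.64 and 0.07.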

How the results depend on the processing

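None of the 4 arrays could be set apart by slide or scan, since they shared 1 of each, so that block was not run. The replicate numbers are not stated to mark a litter or day, and there were only 2 pairs, whose same-numbered arrays had correlated deviations (0.239). With the replicate block, 3 of the 7 enterocyte genes had an unadjusted p under 0.05 in place of 0: Alpi (0.00748), Fabp2 (0.0116) and Rbp2 (0.0185), with adjusted p of 0.158 or more. The block gave 4 of the enterocyte probes, 50 of the 135 list genes (26 without it) and 4 list genes past the adjusted threshold (0 without it; Clps, S100a8, S100a9 and Reg3g). Over all genes, 46 passed the adjusted threshold and 3383 the unadjusted one with the block, 3607 of 37066 the unadjusted one with no filter, and 864 without the female mutant. Leaving out 1 array at a time gave 0 to 2 enterocyte genes and 0 to 3 probes past the unadjusted threshold. Over these omissions Alpi ran from -1.02 to 0.086, Fabp2 from -0.81 to 0.10, Fabp6 from -0.97 to 1.28, Mttp from -0.80 to 0.19 and Stra6 from -0.65 to 0.24. Cdx1 turned to -0.075 with quantile normalization. With normexp, quantile normalization and the median as scale, 6 of the 7 enterocyte genes had a lower mean in the mutants, the number found in the values reported. Dim probes moved most with the background method: normexp brought Rbp2 to -0.26 and Sis to -0.33. Quantile normalization moved the bright Fabp2 from -0.36 to -0.61 (unadjusted p = 0.0861 by limma). Mttp had no value when all 4 arrays had to be well above background. In the comparison of male and female arrays, no array could be left out, since no residual degree of freedom remained. There, the enterocyte genes past the adjusted threshold numbered 4 with normexp and 0 with quantile normalization, without the intensity trend and without the genotype term, and those past the unadjusted one numbered 3 without the genotype term. The causes were not tested.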

Other observations

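Among genes of injury and of other tissues measured beside them, Reg3g, Reg3b and Cyp2e1 differed by more between the genotypes than any enterocyte gene. Their lists were mixed. Of 6 tested stress and wound markers, 4 were higher and 2 lower, with a median of 0.31 and an unadjusted limma p under 0.05 for 2. Of 5 tested liver markers, 4 were lower and 1 higher, with a median of -0.34 and such a p for 1. Reg3g, an antibacterial lectin of the intestinal lining, was higher in the mutants by 2.64 ± 0.29 (log2, ± SE; unadjusted p = 0.000223, adjusted p = 0.373 by limma, and adjusted p = 0.0236 with sex, which is also the replicate number, in the model), with levels of 5.44 and 4.66 in the controls, against 7.88 and 7.51 in the mutants. Its relative Reg3b was higher by 1.45 ± 0.28 (adjusted p = 0.418). Cyp2e1, a cytochrome P450 listed here as a liver marker, was lower by 2.44 as a mean, at -0.53 and -0.75 in the controls, against -3.60 and -2.56 in the mutants (adjusted p = 0.417), while the liver gene Alb was well above background on none of the arrays.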
